A study of Mus musculus with 12 samples.

Results

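Liver makes cholesterol from acetyl-CoA through the mevalonate steps, which end in farnesyl diphosphate, and the sterol steps, which turn squalene into lanosterol and then cholesterol. 29 genes of this route and of its control by the transcription factor SREBP2 were listed by name: 8 genes of the mevalonate and isoprenoid steps, 12 of the squalene and sterol steps, 4 of SREBP2 control and 5 of sterol handling. The platform's gene table gave at least 1 probe set to 27 of them, and all 27 passed the filter on low signals, out of 13598 genes tested. Acat2 and Soat2 were not analysed here. 19 of the 27 encode enzymes of the route. Where a gene had several probe sets, the one with the highest mean over the 12 arrays was used.

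Livers of 12 male mice aged 6 to 12 weeks were profiled on Affymetrix arrays, 3 mice per group, all kept on 12 h of light and 12 h of dark and sampled at ZT14, which is 14 h after lights on. The wild-type mice, of the Jcl:ICR strain, were untreated in 1 group and in another ate chow with 0.5% (w/w) of the drug bezafibrate, over 5 days. The Clk/Clk mice, mutant in Clock on the Jcl:ICR background, and the PPARalpha-null mice, from the line 129S4SvJae-PPARalphatm1Gonz/J crossed with Jcl:ICR, were all fed bezafibrate in the same way. Bezafibrate is a fibrate drug that activates PPAR nuclear receptors, and PPARα is the main one in hepatocytes. Both alterations are carried by every cell of the body, and neither mutant was left untreated, so a genotype's own difference and its difference in drug response cannot be told apart. The null mice also differ from the others in strain background, which cannot be told apart from the missing receptor.

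SREBP2 is held in the endoplasmic reticulum with its escort SCAP by the INSIG proteins while sterols are plentiful. When sterols fall, SCAP carries SREBP2 to the Golgi, where it is cut, and the released factor binds sterol regulatory elements, usually beside NF-Y or Sp1 sites, and switches on the whole enzyme series together. In liver these genes are known to vary with feeding and time of day.

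4 promoters are shown, chosen by how the genes behaved or by the letters they hold. Hmgcs1 fell in PPARalpha-null mice and not in Clk/Clk mice, and Cyp51 was lower in both mutants. Insig1 holds an E-box (the sequence CLOCK and its partner BMAL1 bind), with no difference called in either mutant against treated wild type. Insig2 was higher in Clk/Clk mice. Each line gives the 250 bases before the start site from RefSeq (GRCm38.p6), 5′ to 3′ on the gene's strand, with matches to TCACNCCAC (the sterol regulatory element core), CCAAT (the NF-Y box) and CACGTG (the E-box) on either strand in capitals. The stretches lie at chr13:119690101-119690350 (plus strand), chr5:4104698-4104947 (minus), chr5:28071162-28071411 (plus) and chr1:121332590-121332839 (minus). For Insig2 the first of 3 listed start sites is shown, and which start the measured transcripts used is not known.
Hmgcs1 promoter: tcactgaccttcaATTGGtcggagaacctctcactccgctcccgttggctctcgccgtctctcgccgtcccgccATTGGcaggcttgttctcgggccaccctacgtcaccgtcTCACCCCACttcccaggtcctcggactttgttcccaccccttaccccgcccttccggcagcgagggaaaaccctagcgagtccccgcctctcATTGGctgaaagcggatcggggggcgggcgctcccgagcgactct
Cyp51 promoter: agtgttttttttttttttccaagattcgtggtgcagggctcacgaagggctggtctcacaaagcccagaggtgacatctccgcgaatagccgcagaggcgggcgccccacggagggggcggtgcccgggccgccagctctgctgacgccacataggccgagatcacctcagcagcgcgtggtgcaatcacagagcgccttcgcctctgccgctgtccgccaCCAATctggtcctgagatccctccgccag
Insig1 promoter: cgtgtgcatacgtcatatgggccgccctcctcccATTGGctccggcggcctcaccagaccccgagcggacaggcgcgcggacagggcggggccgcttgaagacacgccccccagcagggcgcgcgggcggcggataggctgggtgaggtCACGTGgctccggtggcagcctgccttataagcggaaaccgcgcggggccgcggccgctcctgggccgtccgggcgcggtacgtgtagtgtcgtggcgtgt
Insig2 promoter: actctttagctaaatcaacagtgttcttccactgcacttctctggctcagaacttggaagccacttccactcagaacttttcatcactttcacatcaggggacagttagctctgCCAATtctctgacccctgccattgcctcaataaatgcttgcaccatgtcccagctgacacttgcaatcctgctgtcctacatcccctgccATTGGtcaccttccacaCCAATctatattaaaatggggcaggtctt

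The deposited log2 values of mice of 1 group correlated over all probe sets at 0.9934 to 0.996, and those of different groups at 0.9689 to 0.9902, so no array stood apart. Ppara was at 9.73 to 10.04 in the PPARalpha-null mice and 10.53 to 11.0 in treated wild type, and Clock was at 9.07 to 9.37 in Clk/Clk mice and 7.99 to 8.49 in treated wild type. The position of these probe sets relative to the altered exons was not used here, so those values check neither genotype. Dbp, a direct CLOCK target, was at 4.86 to 7.06 in the Clk/Clk mice and at 9.42 or above in all 9 other mice. Differences below are on the log2 scale with the limma standard error (SE). A gene was called, and is said to rise or fall, at a Benjamini-Hochberg adjusted p under 0.05 over all 13598 genes together with a difference of at least 1.5-fold. Values by mouse follow the order of mice 1, 2 and 3, and the numbers pair no mice across groups.

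In wild-type liver bezafibrate raised most enzymes of the route. 17 of the 27 genes rose and 1 fell, against 12.8% of all genes that rose and 7.77% that fell, and the median difference was 0.95, against 0.01 over all genes. Of the 19 enzymes 15 rose and none fell. The treated mice lay above all untreated mice for 19 of the 27 genes, against 30.2% of all genes, and below them for 4, against 26.1%. Leaving out any single array left 17 rising genes. Cell type markers moved with the drug too. The mean of 9 hepatocyte markers was 13.93 to 14.01 in untreated and 13.38 to 13.48 in treated mice, with 3 of the 9 called lower. The mean of 6 sinusoidal endothelial markers was 8.58 to 8.66 against 8.17 to 8.52, with 2 called lower. These means joined unlike members. Tat went from 13.52, 13.23 and 13.16 to 11.63, 11.43 and 11.94, while Alb went from 14.85, 14.85 and 14.87 to 14.86, 14.82 and 14.83. The endothelial marker Pecam1 was higher in treated mice, at 6.35, 6.17 and 6.19 against 5.75, 6.02 and 5.81. The part of the markers in the result was not tested. In whole liver a change in the share of cells of a type and a change of RNA per cell cannot be told apart.

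**Figure D1:**
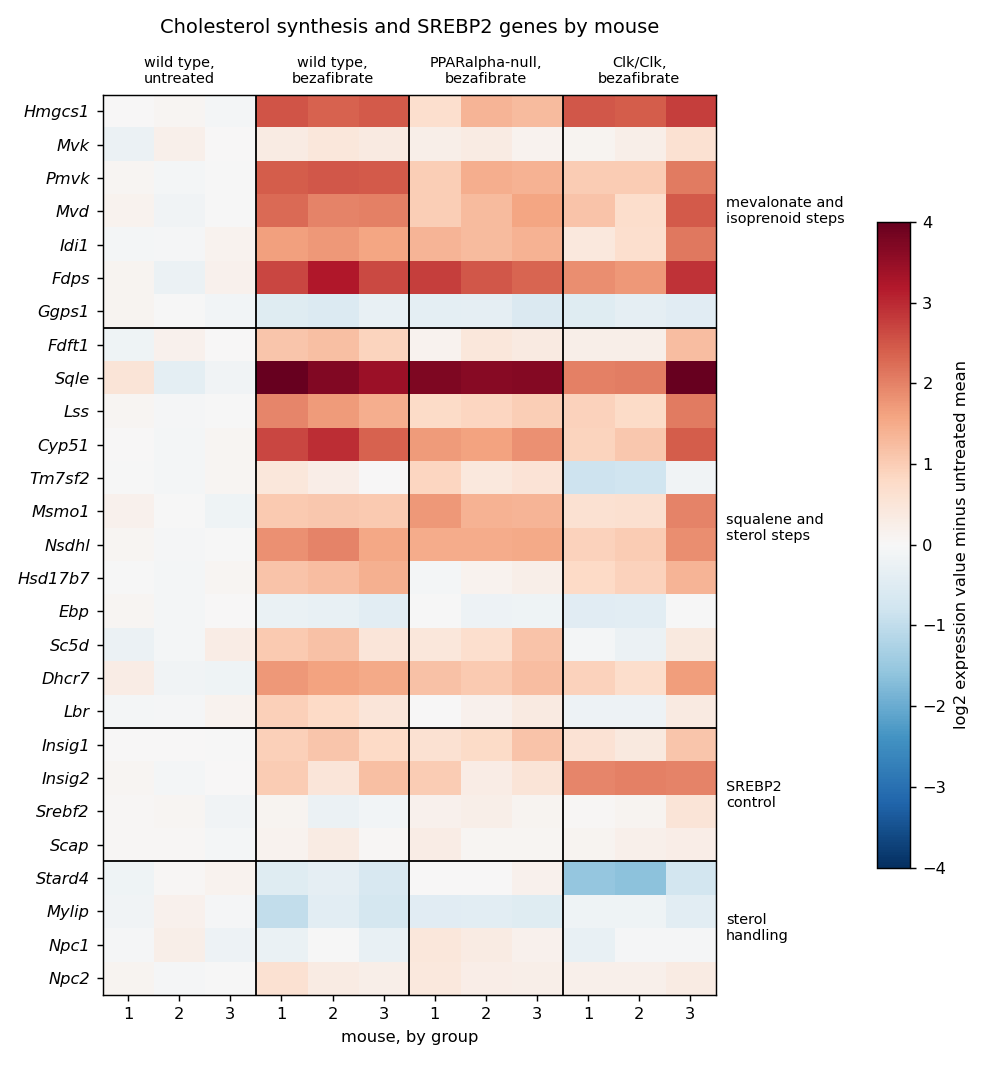
Heat map of the 27 genes (rows, by step) in the 12 mice (columns, by group), coloured by the log2 expression value minus the mean of the 3 untreated mice. Most enzymes are red in all treated mice, with the mean of Sqle in treated wild type at 3.78, while Ggps1, Ebp, Mylip and Stard4 are at or below the untreated level there.

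Among the mevalonate steps, 5 of 7 genes rose. Hmgcs1, the synthase that makes HMG-CoA, read 10.51, 10.57 and 10.42 in untreated and 13.03, 12.86 and 12.95 in treated wild type, 5.43-fold higher (2.44, SE 0.158, adjusted p = 3.97e-07). Pmvk, the phosphomevalonate kinase, read 7.75, 7.58 and 7.65 against 10.09, 10.13 and 10.12, a difference of 2.45 (SE 0.237). These groups were separated by many times their own range. Mvd, the decarboxylase that forms isopentenyl diphosphate, went from 6.30, 6.02 and 6.14 to 8.40, 8.14 and 8.15 (2.08, SE 0.344). Idi1, its isomerase, went from 9.57, 9.59 and 9.79 to 11.30, 11.39 and 11.24 (1.66, SE 0.319). Fdps, which condenses the isoprenes into farnesyl diphosphate, went from 9.35, 9.0 and 9.41 to 11.92, 12.45 and 11.88, 7.11-fold (2.83, SE 0.271, adjusted p = 7.61e-06). All of these had non-overlapping groups. Mvk, the first kinase of the route, was not called (0.38, SE 0.137, 1.30-fold). Ggps1, whose product leaves the sterol route for protein prenylation, was not called either (-0.44, SE 0.0928, 1.36-fold), with all 3 treated mice below all untreated mice.

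Among the squalene and sterol steps, 10 of 12 genes rose. Sqle, the squalene epoxidase and a rate-limiting step of the route, read 6.61, 5.71 and 5.95 in untreated and 10.32, 9.78 and 9.51 in treated wild type, 13.8-fold higher (3.78, SE 0.488, adjusted p = 7.16e-05), the largest rise of the 27 genes. Cyp51, the lanosterol demethylase, read 7.95, 7.84 and 8.0 against 10.61, 10.89 and 10.29, 6.35-fold (2.67, SE 0.311). Lss, which closes the sterol rings, read 7.72, 7.59 and 7.62 against 9.59, 9.35 and 9.10 (1.70, SE 0.270). In each case the lowest treated mouse stood over 1 log2 unit above the highest untreated mouse. Nsdhl, a sterol decarboxylating dehydrogenase, read 8.67, 8.52 and 8.55 against 10.42, 10.55 and 10.13 (1.79, SE 0.199), and Dhcr7, the reductase of a final step, read 9.03, 8.58 and 8.55 against 10.46, 10.32 and 10.22 (1.61, SE 0.208). Both are late enzymes and both rose more than 3-fold.

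The smaller rises were in the enzymes flanking these. Fdft1, the squalene synthase, read 10.23, 10.56 and 10.39 against 11.50, 11.60 and 11.29 (1.07, SE 0.225). Hsd17b7, a keto-sterol reductase, read 9.41, 9.35 and 9.50 against 10.55, 10.65 and 10.83 (1.25, SE 0.137). Msmo1, the methylsterol monooxygenase, read 10.22, 10.02 and 9.88 against 11.08, 11.12 and 11.09 (1.06, SE 0.285). The groups of all 3 genes were apart, and the 3 treated values of Msmo1 were nearly equal. Sc5d, the sterol desaturase, read 10.83, 11.0 and 11.38 against 12.12, 12.25 and 11.56 (0.91, SE 0.232). Lbr, a nuclear envelope protein with sterol reductase activity, read 8.69, 8.74 and 8.91 against 9.73, 9.59 and 9.27 (0.75, SE 0.165, 1.68-fold). For both, treated mouse 3 was the lowest of its group and still above all untreated mice. Tm7sf2, the reductase that shares its step with Lbr, was not called (0.25, SE 0.179), nor was Ebp, the sterol isomerase (-0.33, SE 0.108, with the treated mice below the untreated).

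The genes that control SREBP2 moved less. Insig1, the INSIG gene that is itself an SREBP target, read 11.09, 11.12 and 11.07 in untreated and 12.03, 12.21 and 11.89 in treated wild type, 1.93-fold higher (0.95, SE 0.173, adjusted p = 8.22e-04). Insig2 read 10.55, 10.40 and 10.47 against 11.50, 10.95 and 11.67 (0.90, SE 0.189), with the treated mice spread over 0.72. Both INSIG genes rose and their groups did not overlap. Srebf2, which encodes SREBP2, was at 7.19 to 7.41 in untreated and 7.11 to 7.45 in treated mice (-0.07, 95% confidence interval -0.35 to 0.21), and Scap differed by 0.16 (-0.04 to 0.37). A second, dimmer Srebf2 probe set differed by 0.56.

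Among the sterol handling genes, Mylip, a ubiquitin ligase that removes lipoprotein receptors, fell. It read 8.61, 8.91 and 8.70 in untreated and 7.76, 8.33 and 8.04 in treated wild type (-0.70, SE 0.133, adjusted p = 0.00118). Without treated mouse 1 its difference was -0.55 and no longer reached 1.5-fold. Stard4, a soluble sterol carrier known as an SREBP2 target, read 10.18, 10.41 and 10.50 against 9.87, 9.99 and 9.71, the opposite direction to the enzymes (-0.51, SE 0.197, adjusted p = 0.0519). It was called lower, at -0.60, when untreated mouse 1 was left out, which made 2 falling genes. Npc1 and Npc2, which export cholesterol from lysosomes, were not called (-0.19, SE 0.124, and 0.39, SE 0.0989).

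**Figure D2:**
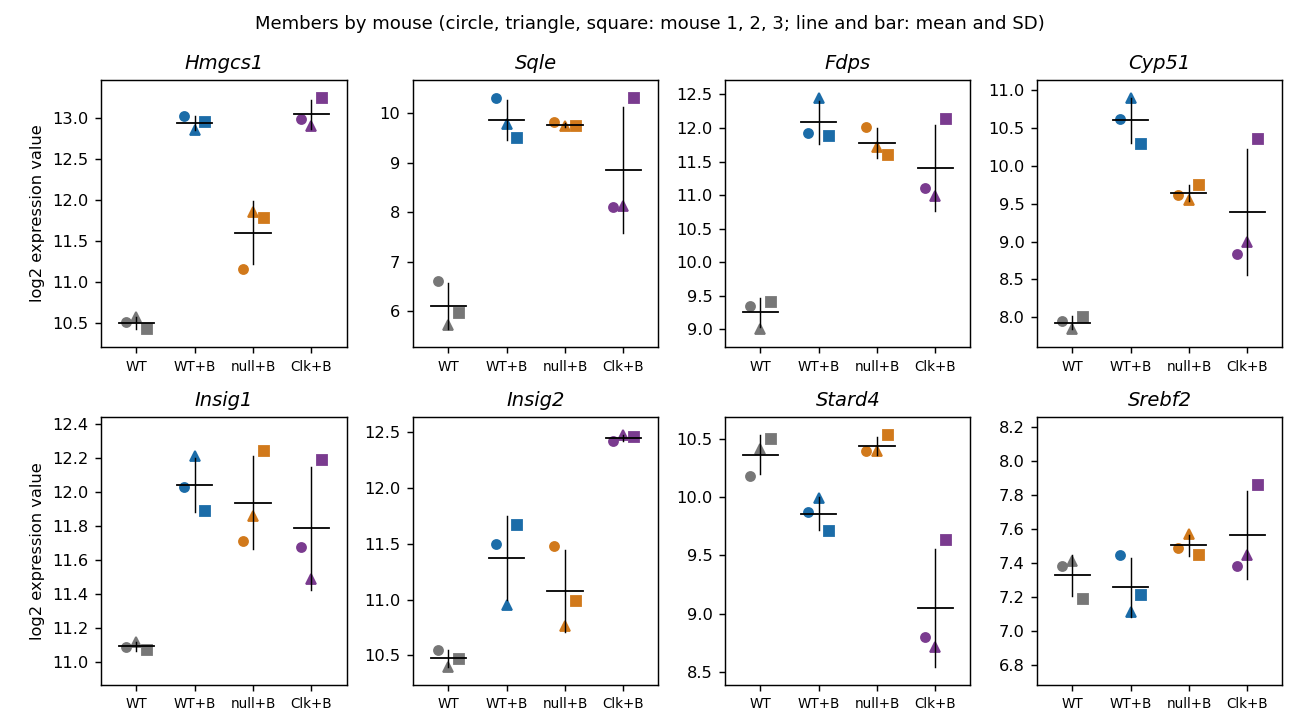
Log2 expression values of 8 genes in the 12 mice (WT, wild type; B, bezafibrate; null, PPARalpha-null; Clk, Clk/Clk), with the mean and SD of the 3 mice of each group. Among the treated groups Hmgcs1 is lowest in the null mice, at 11.16 to 11.86, Insig2 is high in the Clk/Clk group, at 12.42 to 12.47, and Clk/Clk mouse 3 (square) lies apart from mice 1 and 2 for Sqle, Fdps, Cyp51 and Stard4.

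Some of the enzymes were lower in treated mice that lacked PPARα. On bezafibrate, 6 of the 27 genes were lower in PPARalpha-null than in wild-type mice and none higher, against 8.09% and 5.35% of all genes, and the median difference was -0.15, against 0.01. All 6 are enzymes. The null mice lay below all treated wild-type mice for 11 genes and above them for 5, against 24.3% of all genes in each direction. This comparison shares its treated wild-type mice with the one above, so high values of those mice by chance would enter both with opposite signs. The mean of the hepatocyte markers was 13.71 to 13.84 in the null mice (2 of 9 called higher), and that of 6 stellate cell markers was 8.4 to 8.64 against 8.68 to 8.75 in treated wild type (1 called lower). 2 of 9 Kupffer cell and macrophage markers were lower as well, with means of 8.43 to 8.66 against 8.48 to 9.0. Members of these lists did not all move alike. The Kupffer cell marker Vsig4 read 9.83, 10.05 and 9.97 in null mice, above the 9.72, 9.4 and 9.59 of treated wild type. The stellate marker Reln read 9.87, 9.68 and 9.72, above 8.74, 9.48 and 9.52. The part of these markers in the result was not tested.

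Hmgcs1 had the largest fall, to 11.16, 11.86 and 11.78 in the null mice (-1.34, SE 0.158, adjusted p = 7.1e-05, 2.54-fold). All 5 Hmgcs1 probe sets were lower there, by 1.34 to 1.61 in the means, so the result did not depend on the probe set. Pmvk read 8.65, 9.12 and 9.06 (-1.17, SE 0.237, adjusted p = 0.00293). Hsd17b7 read 9.34, 9.57 and 9.66 (-1.15, SE 0.137, adjusted p = 7.6e-05). The Hsd17b7 values lay at the untreated level (0.10 from untreated wild type), while Hmgcs1 and Pmvk stayed between the untreated and the treated wild-type mice. Cyp51 read 9.62, 9.55 and 9.75 (-0.96, SE 0.311, adjusted p = 0.0335), Lss 8.42, 8.51 and 8.63 (-0.83, SE 0.270, adjusted p = 0.0339) and Fdft1 10.53, 10.84 and 10.74 (-0.76, SE 0.225, adjusted p = 0.0221). For these 3 genes no null mouse reached the lowest treated wild-type mouse.

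Leaving out treated wild-type mouse 1, treated wild-type mouse 2 or null mouse 1 took the calls of Cyp51, Lss and Fdft1 and left 3 lower genes. Cyp51 and Lss also lost their calls without null mouse 2 or 3. With a gene's probe sets averaged, Lss (-0.52) and Fdft1 (-0.33) were not called. The same held with probe sets that can bind related transcripts left out (-0.54 and -0.67). With other limma settings Cyp51 was not called (adjusted p = 0.051). Mvd, at 7.12, 7.43 and 7.73, was not called with all mice (-0.80, SE 0.344, adjusted p = 0.093) and was called without Clk/Clk mouse 2 or 3, whose spread enters the shared error. It was also called with probe sets that can bind related transcripts left out (-0.61) and in a fit on the 2 groups alone. Lbr (-0.56 with all mice) was called without treated wild-type mouse 3 or null mouse 3.

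The other genes were not called lower in the null mice. Sqle read 9.82, 9.74 and 9.75, -0.10 from treated wild type with a confidence interval of -1.17 to 0.97. Fdps read 12.02, 11.72 and 11.59 (-0.31, -0.90 to 0.29), Idi1 11.0, 10.90 and 11.05 (-0.32, -1.02 to 0.38) and Nsdhl 10.07, 10.05 and 10.11 (-0.29, -0.73 to 0.15). Msmo1 was above all treated wild-type mice at 11.77, 11.43 and 11.41, and was not called (0.44, -0.19 to 1.06). These intervals leave room for differences of about the size called elsewhere. Dhcr7 read 9.89, 9.78 and 9.96 (-0.46) and Sc5d 11.53, 11.73 and 12.20 (-0.15), neither called. Insig1, at 11.71, 11.86 and 12.24 (-0.11), and Insig2, at 11.48, 10.76 and 10.99 (-0.30), were not called. Stard4 was at 10.39, 10.39 and 10.53, above every treated wild-type mouse (0.58, SE 0.197, adjusted p = 0.0403), just under the 1.5-fold limit at 1.49-fold. Npc1 was higher by 0.51 (SE 0.124), below that limit, and passed it at 0.60 without treated wild-type mouse 2. Tm7sf2 read 11.70, 11.28 and 11.39 (0.36) and Mylip 8.29, 8.32 and 8.27 (0.25), neither called.

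Set against untreated wild type, the treated null mice had 15 of 27 genes higher and none lower (3.96% and 2.69% of all genes), with a median of 0.61. Sqle stood 3.68 above the untreated mice, Fdps 2.52, Cyp51 1.71, Nsdhl 1.5 and Msmo1 1.5, while Hsd17b7 (0.10), Fdft1 (0.31) and Lbr (0.19) were not called. Tm7sf2 was called here (0.61), with Mvd 1.28, Lss 0.88, Sc5d 0.75 and Insig2 0.60. These 5 calls rested on few mice. The Lss call was lost without any single one of the mice compared, those of Tm7sf2 and Insig2 without any one of them but null mouse 2, and that of Mvd without untreated mouse 2 or 3 or null mouse 2 or 3. The Sc5d call was lost without untreated mouse 1 or 2, null mouse 2 or 3 or Clk/Clk mouse 1, and that of Insig2 also without any one Clk/Clk mouse. No untreated null mice were measured, so this comparison joins genotype and drug.

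**Figure D3:**
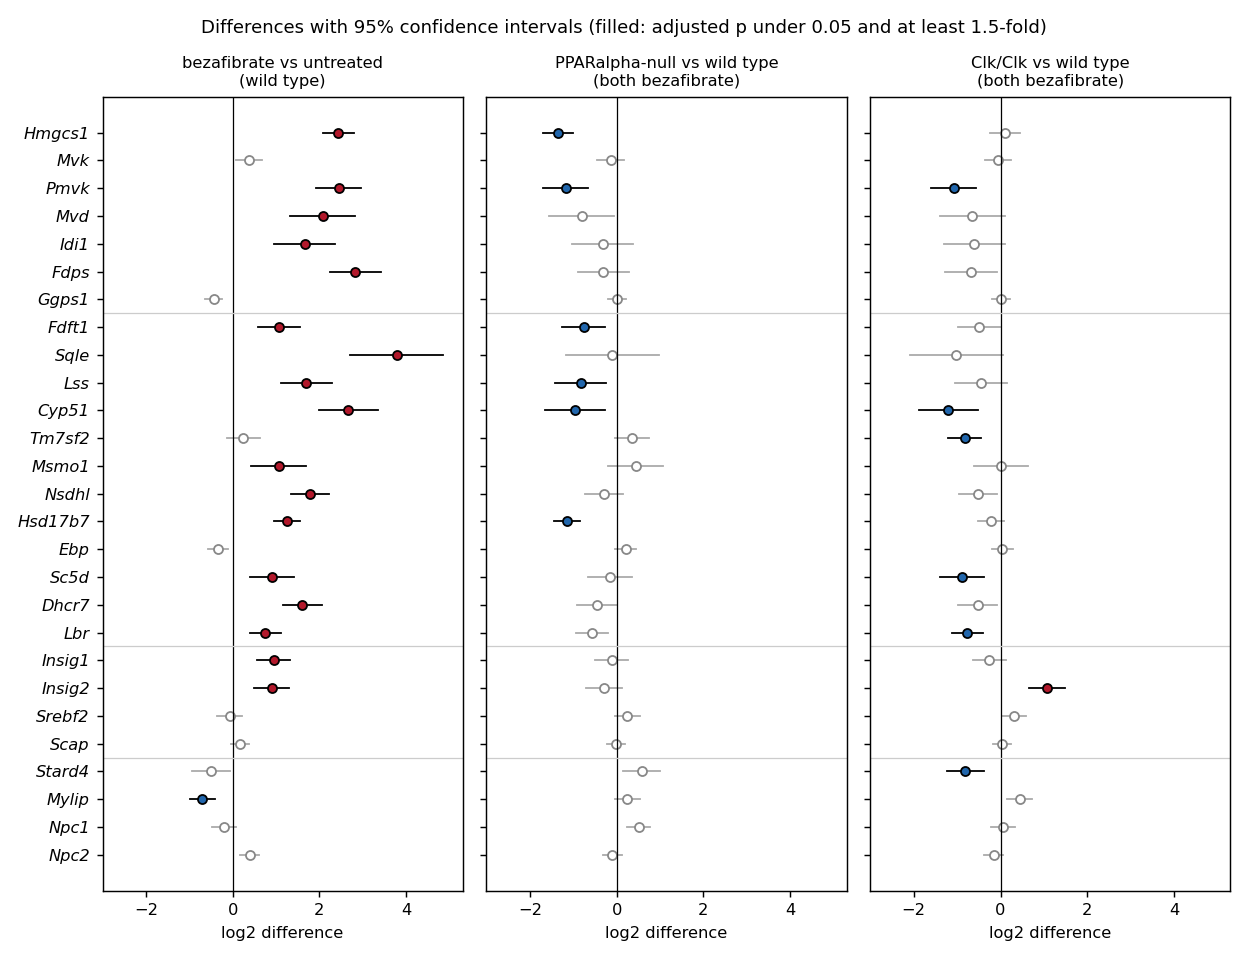
Log2 differences with 95% confidence intervals for the 27 genes in the main comparisons, filled where called (red higher, blue lower). Calls on the right of 0 fill the bezafibrate panel (17 genes), and the mutant panels hold 6 lower genes each, with Insig2 the only one called higher, in Clk/Clk mice at 1.08.

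In Clk/Clk mice on bezafibrate a partly shared subset was lower, with Pmvk and Cyp51 called in both mutants. Against treated wild type 6 of the 27 genes were lower and 1 higher, against 6.49% and 2.64% of all genes, with a median of -0.45, against 0.02. The mice of the Clk/Clk group lay below all treated wild-type mice for 5 genes (21.1% of all genes) and above them for 1 (21.2%). A Kupffer cell and macrophage list moved with this comparison: its mean over 9 markers was 7.97 to 8.34 in Clk/Clk mice and 8.48 to 9.0 in treated wild type, with all 9 above the filter on low signals and 3 called lower. The means of the hepatocyte markers were 13.52 to 13.62 against 13.38 to 13.48, with 1 called higher. The mean of the 6 stellate cell markers was 8.48 to 8.56 against 8.68 to 8.75, with 1 called lower. Not all of them fell: Reln was at 9.54, 9.66 and 9.59 against 8.74, 9.48 and 9.52. The mean of 4 lymphocyte and blood markers was 5.64 to 5.7 against 5.73 to 6.12, with 1 called lower. The part of these lists in the result was not tested.

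Pmvk read 8.69, 8.66 and 9.75 in Clk/Clk mice (-1.08 from treated wild type, SE 0.237, adjusted p = 0.00733). Cyp51 read 8.83, 9.0 and 10.35 (-1.20, SE 0.311, adjusted p = 0.0163), with mouse 3 inside the range of treated wild type. The probe sets of Cyp51 differed in size here. A dimmer one read 5.92, 6.16 and 7.39 in Clk/Clk mice, 6.35 to 6.46 in untreated and 9.09 to 9.46 in treated wild type, and the dimmest put the Clk/Clk mean only 0.42 below treated wild type. Sc5d read 11.0, 10.83 and 11.46 (-0.88, SE 0.232), Tm7sf2 10.02, 10.06 and 10.71 (-0.83, SE 0.179) and Lbr 8.57, 8.57 and 9.14 (-0.77, SE 0.165). All 3 of these sterol enzymes were close to or under the level of untreated mice in the mean, 0.03, -0.58 and -0.02 from it. Dimmer Sc5d probe sets put the Clk/Clk mean further above the untreated mean, by 0.70 and 0.26. Stard4, the sterol carrier, read 8.80, 8.72 and 9.63 (-0.81, SE 0.197), and was the only gene of the 27 called lower than in untreated wild type (-1.31).

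Insig2 was the only gene of the 27 called higher. It read 12.42, 12.47 and 12.45 in Clk/Clk mice against 11.50, 10.95 and 11.67 in treated wild type, 2.11-fold higher (1.08, SE 0.189, adjusted p = 0.00216). The 3 values were nearly equal and above those of all 9 other mice. All 3 Insig2 probe sets had higher means, by 0.82 to 1.10, and the call held with any array left out and in every alternative fit. Its paralog Insig1 read 11.68, 11.49 and 12.19 and was not called (-0.26, -0.64 to 0.12).

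Enzymes that had fallen in the null mice did not all fall here. Hmgcs1 read 12.99, 12.91 and 13.25, 0.11 from treated wild type with a confidence interval of -0.24 to 0.45. The dimmest Hmgcs1 probe set differed by -0.73, and the others by 0.11 to 0.23. Hsd17b7 read 10.23, 10.35 and 10.78 (-0.22, -0.52 to 0.08). Dimmer Hsd17b7 probe sets that passed the filter differed more, by -0.69 and -0.47. The mutants were also compared directly. Against PPARalpha-null mice, Clk/Clk mice were higher for Hmgcs1 (1.45), Insig2 (1.37) and Hsd17b7 (0.93), and lower for Stard4 (-1.39), Tm7sf2 (-1.19) and Sc5d (-0.72). That made 3 of the 27 genes higher and 3 lower, counts not far from the 7.43% and 7.78% of all genes. The Sc5d call was lost without null mouse 2 or 3 or Clk/Clk mouse 1 or 2, and without Clk/Clk mouse 3 the lower genes were 8, with Idi1, Fdps, Sqle, Cyp51 and Msmo1 added.

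Set against untreated wild type, Clk/Clk mice had 14 of 27 genes higher and 1 lower (10.6% and 8.82% of all genes). Sqle was higher by 2.76, Hmgcs1 by 2.55, Fdps by 2.15 and Insig2 by 1.97. Fdft1 (0.57) was not called and became so without Clk/Clk mouse 1 or 2. The calls of Idi1 (1.06) and Insig1 (0.69) were lost without Clk/Clk mouse 3, and Tm7sf2 was called lower without untreated mouse 1, untreated mouse 2 or Clk/Clk mouse 3.

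The 3 Clk/Clk mice did not behave alike for this route. The SD within the group had a median of 0.362 over the 27 genes and 0.51 over the 19 enzymes, against 0.102 over all genes in the same mice. In the other groups the median over the 27 genes was 0.118 (untreated), 0.159 (treated wild type) and 0.128 (PPARalpha-null). Over all genes it was 0.109, 0.111 and 0.0997 in these groups, and over the 19 enzymes 0.118, 0.149 and 0.157. 16 of the 27 genes were among the 5% of all genes with the largest SD in Clk/Clk mice, and 1, 1 and 4 in the other groups. With 3 mice per group these spreads are described, not tested.

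Mouse 3 stood apart from the other two. It had the highest value of its group for 23 of the 27 genes and 18 of the 19 enzymes (94.7%), against 40.1% of all genes. Sqle was at 8.10, 8.13 and 10.32 in the 3 mice, Idi1 at 10.07, 10.32 and 11.75, Mvd at 7.29, 6.84 and 8.61, Msmo1 at 10.64, 10.68 and 12.01, Lss at 8.55, 8.40 and 9.72 and Fdps at 11.10, 10.98 and 12.14. Mice 1 and 2 were close to each other, at most 0.45 apart over these genes. Fdft1 was at 10.63, 10.63 and 11.63, Nsdhl at 9.50, 9.61 and 10.44 and Dhcr7 at 9.64, 9.43 and 10.38. Hmgcs1 differed least among the enzymes that had risen, with mouse 3 only 0.27 above the higher of the others, and Insig2 (-0.02), Ggps1 (-0.09), Npc1 (-0.01) and Mylip (-0.26) were no higher in mouse 3.

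**Figure D4:**
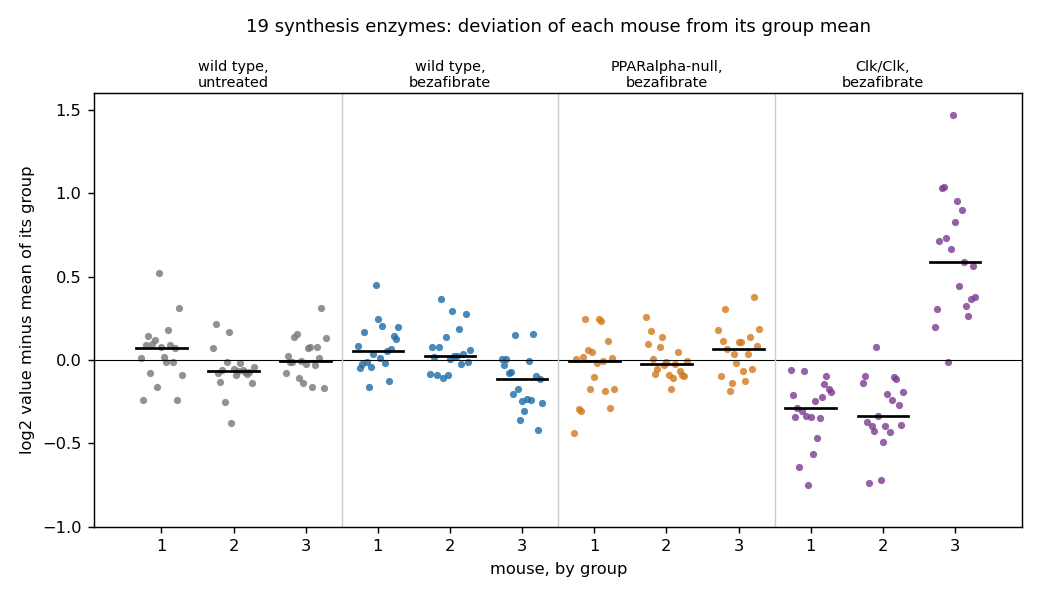
Each point is 1 of 19 synthesis enzymes in 1 mouse, plotted as the log2 value minus the mean of its group, with the median of each mouse as a line. Clk/Clk mouse 3 has a median of 0.59 and a highest value of 1.47, and mice 1 and 2 have medians of -0.29 and -0.33, while the medians of the other 9 mice lie between -0.11 and 0.07.

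Counted mouse by mouse, Clk/Clk mice 1 and 2 lay below every treated wild-type mouse for 17 and 16 of the 19 enzymes and mouse 3 for 4, where over all genes the shares were 33.8%, 33.3% and 31.7%. Mouse 3 lay above every treated wild-type mouse for 8 of the 19 enzymes, and mice 1 and 2 for 0. The 8 are 42.1% of the enzymes, near the 39.2% of all genes that lay so in mouse 3. The null mice were more alike, below all treated wild-type mice for 13, 12 and 14 enzymes, against 36.1%, 34.4% and 35.1% of all genes. All 6 treated mutants nevertheless lay above every untreated mouse for 13 to 17 of the 19, where the shares of all genes were 35.4% to 42.2%.

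The count of lower genes in Clk/Clk mice depended on mouse 3. Without it 14 of the 27 genes were called lower, the added ones being Mvd (-1.16), Idi1 (-1.11), Fdps (-1.04), Fdft1 (-0.83), Sqle (-1.76), Lss (-0.87), Nsdhl (-0.81) and Dhcr7 (-0.80). With all 3 mice the same genes differed by -0.45 (Lss) to -1.02 (Sqle) and had adjusted p-values of 0.0799 to 0.246. With probe sets that can bind related transcripts left out, Lss stood at 0.2 in place of -0.45. In a fit on the 2 groups alone the count was 4, since Cyp51 (adjusted p = 0.0733) and Stard4 (0.0537) were not called. Without Clk/Clk mouse 2 the count was 3, since Cyp51, Sc5d and Stard4 lost their calls. Cyp51 also lost it without treated wild-type mouse 2 or Clk/Clk mouse 1, and Sc5d without treated wild-type mouse 1 or 2 or Clk/Clk mouse 1. Leaving out treated wild-type mouse 2 made Mylip a second gene called higher, at 0.59. Hmgcs1 and Msmo1 stayed uncalled with any mouse left out, though without Clk/Clk mouse 3 Msmo1 went from 0.01 to -0.44 (adjusted p = 0.0346, under the 1.5-fold limit).

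Across the array mouse 3 was not an outlier, and its correlation with mice 1 and 2 was 0.995 and 0.9949. At least 1 log2 unit above both others it had 27 of all 13598 genes (0.199%), of which 8 belong to the route. Among the other 19, chosen here after their values were seen, were genes of the clock and its outputs. Dbp was at 4.97, 4.86 and 7.06, Per2 at 6.09, 5.38 and 7.21 and Per3 at 6.14, 6.14 and 7.35. All 3 stayed below every wild-type and null mouse in mouse 3 too. Arntl, which encodes BMAL1, was at 7.94, 8.32 and 7.33. The immediate early genes Fos, Egr1 and Atf3 and the interferon-inducible genes Gbp6 (9.13, 6.59 and 10.27), Cxcl9, Cxcl10, Rsad2 and Ifi47 were also among the 19. So was Aacs, which makes acetoacetyl-CoA for sterol synthesis, at 8.59, 8.14 and 9.62. The part of these differences in the spread of the sterol genes was not tested.

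Over the 12 mice, with each gene's group mean removed, the correlation of an enzyme with the mean of the 19 enzymes ranged from -0.185 (Ggps1) to 0.98 (Lss). It was 0.97 for Cyp51, 0.966 for Nsdhl and 0.96 for Idi1, and lower for Hmgcs1 (0.447), Sc5d (0.618) and Mvk (0.624). Of the other genes, Insig2 was at -0.122, Stard4 at 0.919 and Srebf2 at 0.749. These values describe 12 mice, of which Clk/Clk mouse 3 deviates most from its group, and enzymes are part of the mean they are set against. The genes outside the route most like it by this measure were Mydgf and Pank3 (0.962 each), Bsn (0.935), Gtpbp2 (0.934), Snrpg (0.929), Smim5 (0.918), Echs1 (0.917), Anp32b (0.916), Mier1 (0.915) and BC023105 (0.914). Most of them differed little in size: Pank3, a pantothenate kinase of coenzyme A synthesis, was at 10.74, 10.72 and 11.15 in Clk/Clk mice. BC023105 was the exception, at 5.00, 4.47 and 9.97 there.

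Among 24 further tested genes of acetyl-CoA supply, SREBP processing, sterol handling and prenylation, 5 rose and 2 fell with bezafibrate in wild type, against 12.8% and 7.77% of all genes. Acly (1.45, SE 0.247) and Acss2 (1.43, SE 0.253), which make cytosolic acetyl-CoA, rose, and so did Nceh1 (1.35, SE 0.173), a cholesteryl ester hydrolase. Mbtps2, the protease that makes the second cut in SREBP, was higher by 0.58 (SE 0.0848) in non-overlapping groups and missed the 1.5-fold limit at 1.49-fold. Stard5, a sterol-binding protein, fell (-0.65, SE 0.116). In PPARalpha-null mice 3 of the 24 were higher and 3 lower than in treated wild type, against 5.35% and 8.09% of all genes. Nceh1 was at 9.34, 8.56 and 9.22 against 10.34, 10.27 and 10.61 in treated wild type (-1.36, SE 0.173, adjusted p = 1.19e-04). Tmem97, a sterol-regulated membrane protein that binds NPC1, was higher (0.85, SE 0.104), with Stard5 (0.79) and Gramd1c (0.95), a sterol transfer protein. In Clk/Clk mice 1 was higher and 3 were lower, against 2.64% and 6.49% of all genes. With so few genes, counts of this size are not far from those shares. The lower ones all supply acetyl-CoA or acetoacetyl-CoA: Aacs (-1.22, SE 0.315), Acly (-1.17, SE 0.247) and Acss2 (-1.06, SE 0.253). Acly was at 11.18, 10.73 and 11.64 and Acss2 at 10.33, 10.21 and 11.13, again highest in mouse 3. Rabggtb, a subunit of Rab prenyltransferase, was the higher one (0.82, SE 0.0771).

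LXR receptors sense oxysterols and drive sterol efflux, opposite to SREBP2. Of 7 tested genes of that arm, 1 rose with bezafibrate, a count near the 12.8% of all genes. It was Lpcat3 (1.94, SE 0.114), a phospholipid acyltransferase, and it was lower in the null mice (-1.29, SE 0.114). Abca1, the cholesterol efflux pump, differed by -0.13 with the drug and Srebf1 by -0.12, neither called. Abcg8, a subunit of the biliary sterol transporter, was higher in Clk/Clk mice (9.15, 9.52 and 9.11 against 8.60, 8.33 and 8.40, a difference of 0.82, SE 0.162), the only one of the 7 called there. Its partner Abcg5 was not called (0.23, SE 0.201).

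RefSeq promoter windows of 300 bases, from 250 before to 50 after a start site, were matched for 23 of the 29 genes. Fdps, Fdft1, Sqle, Soat2, Stard4 and Npc1 were not matched. The NF-Y box CCAAT was in 21 of 23, against 41.1% of all genes in the table, and the Sp1 box GGGCGG in 21 of 23, against 38.2%, counting both strands and any of a gene's windows. TCACNCCAC was in 1 of 23, Hmgcs1, against 1.44% of genes, and there it read TCACCCCAC (0.614% of genes hold that form) at position -137 from the start. The NF-Y box was in 14 of 14 matched genes that rose with bezafibrate and in 7 of 8 measured genes that did not. The E-box CACGTG was in 5 of 23, against 8.09% of genes: Hsd17b7, Sc5d, Dhcr7, Insig1 and Scap. Of these only Sc5d was lower in Clk/Clk mice. Neither a direct repeat of AGGTCA with 1 base between, the usual PPAR site, nor a copy with up to 2 mismatches was in any of the 23 (4.4% of genes hold one), which says only that these letters are not in these windows. A match is a description of letters and not evidence of binding.

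**Figure D5:**
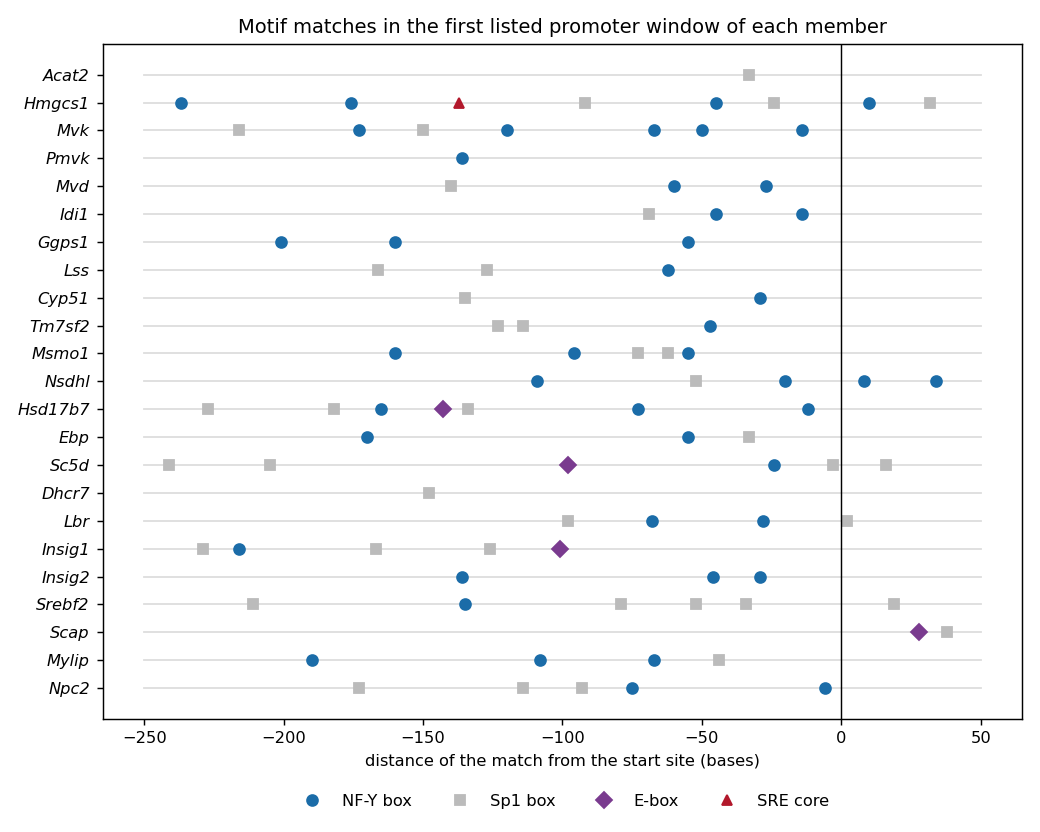
Positions of NF-Y, Sp1, E-box and sterol regulatory element matches in the first listed promoter window of each of the 23 matched genes, as the distance in bases from the start site. NF-Y boxes lie mostly before the start, the Hmgcs1 element at -137, and the E-boxes shown are in Hsd17b7, Sc5d, Insig1 and Scap, since that of Dhcr7 is in another of its windows.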

How the data were processed

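The authors deposited log2 expression values per probe set of an Affymetrix mouse array for 12 livers, made with RMA per the submitters' processing notes; its version and settings are not given in the sources used here. No raw signals were used, and all 12 arrays entered. Probe sets with exactly 1 symbol in the platform's gene table were kept where they reached the 40th percentile of the array on at least 3 arrays (4.87 to 4.92), and the brightest stood for its gene, giving 13598 genes. Probe sets with the suffix x, s or a can bind related transcripts; they stood for Hmgcs1, Pmvk, Mvd, Fdft1, Lss, Msmo1, Hsd17b7, Ggps1 and Npc2. limma 3.58.1 in R 4.3.3 (lmFit, eBayes) fitted 4 group means to all arrays without covariates, since the labels give no batch. The limma p-values were adjusted by Benjamini-Hochberg over all genes. Spread, likeness and promoter letters are described without a test. The fitting script was first tested on simulated data. On arrays the number of mice limits the precision.

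The genes, marker and pathway lists were chosen with earlier results of these data known. Values by mouse are given for genes called in a main comparison, and likeness names the 10 highest correlations. Of the 24 further pathway genes, up to 4 per main comparison with the smallest adjusted p are named, and Stard5 besides for bezafibrate. The LXR genes named include uncalled ones and were not picked by that rule. Some genes of the route are not reported here. Alternatives were each array left out, the filter, the probe set choice, quantile normalization, array weights, other eBayes settings, a replicate block and fits on 2 groups alone.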

Additional observations from a re-analysis of the deposited data

How the results depend on the processing

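No called difference of the 27 genes changed sign in any alternative, while 46 values of 25 uncalled differences did. Over all 27 genes, comparisons and alternatives, 3244 values kept their direction and their side of the threshold, 69 lost a call and 31 gained one. With an array left out, the genes called numbered 17 to 17 higher and 0 to 2 lower for bezafibrate in wild type, 0 to 1 and 3 to 7 for PPARalpha-null against wild type, and 1 to 2 and 3 to 14 for Clk/Clk against wild type. Against untreated wild type they numbered 10 to 15 higher and 0 to 0 lower (PPARalpha-null) and 12 to 15 and 1 to 2 (Clk/Clk), and for Clk/Clk against PPARalpha-null 3 to 3 and 2 to 8. Quantile normalization and array weights each gave 1 gene higher in PPARalpha-null than treated wild type (Stard4) and 2 lower in Clk/Clk than untreated wild type (Tm7sf2 added); the cause was not tested. Averaging a gene's probe sets took, among others, the bezafibrate call of Fdft1 (0.54). It also took the calls of Lss (-0.52) and Fdft1 (-0.33) in PPARalpha-null against treated wild type. Without suffix probe sets Pmvk and Msmo1 had no value, and the same PPARalpha-null calls of Lss and Fdft1 were lost. Same-numbered mice of different groups deviated together at -0.092 to 0.125 over 18 pairs, so the numbers pair no samples; with the replicate block bezafibrate in wild type still had 17 genes higher and 1 lower. The position of probes within transcripts, signal near background in dim probe sets and 3 mice per group limit all values.

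The sign changes, at the 2 decimals reported, were these. With a gene's probe sets averaged, Srebf2 with bezafibrate was at 0.24, Scap at 0.08 in PPARalpha-null and -0.05 in Clk/Clk mice against treated wild type and at -0.13 between the mutants, Hmgcs1 and Mvk at -0.03 and 0.02 in Clk/Clk mice, and Hsd17b7 in null against untreated mice at -0.07. Without suffix probe sets Lss in Clk/Clk against treated wild type was at 0.2 (from -0.45) and Npc2 between the mutants at 0.01. Quantile normalization put Scap in null mice at 0.01 and Sc5d in Clk/Clk against untreated mice at -0.02. Array weights put the latter at -0.08, Msmo1 in Clk/Clk against treated wild type at -0.09, and Pmvk and Mvd between the mutants at -0.02 and -0.06. With an array left out, differences that changed sign ranged as follows. In null against treated wild type, Sqle ranged from -0.28 to 0.12, Scap from -0.08 to 0.07 and Npc2 from -0.18 to 0.01. In Clk/Clk against treated wild type, Mvk ranged from -0.21 to 0.04, Msmo1 from -0.44 to 0.25, Ebp from -0.09 to 0.11 and Scap from -0.04 to 0.1. Against untreated mice, Stard4 in null mice ranged from -0.02 to 0.14, and in Clk/Clk mice Sc5d from -0.15 to 0.18 and Lbr from -0.21 to 0.08. Between the mutants, Mvk ranged from -0.07 to 0.18, Pmvk from -0.27 to 0.27, Mvd from -0.36 to 0.53, Idi1 from -0.79 to 0.05, Fdft1 from -0.07 to 0.42, Lss from -0.04 to 0.62, Cyp51 from -0.72 to 0.04, Dhcr7 from -0.34 to 0.13, Srebf2 from -0.09 to 0.15 and Scap from -0.01 to 0.11. The cause was not tested.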
